A study of Mus musculus with 52 samples.

Results

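The dentate gyrus is the hippocampal subregion that receives the main cortical input and goes on making granule neurons in adult mice. Here its microRNAs (miRNAs, short RNAs that repress matching messenger RNAs) were compared between mice kept for 10 weeks in an enriched environment and mice kept for 10 weeks in the home cage. The members were all libraries whose labels give dentate gyrus and 10 weeks, 8 enriched and 6 home cage, which makes 14 of the 52 libraries of the study. All were from mice of the strain C57B/6JRj at 20 weeks of age, and housing was the one labelled difference between the groups. The labels record no transgene, injection or drug in either group.

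The study as a whole crossed 2 hippocampal subregions (DG and CA, the cornu ammonis), 2 housing conditions and 2 durations, 2 and 10 weeks. Tissue was dissected under a microscope, and libraries of small RNA were made from total RNA. Whether the 14 libraries stand for 14 animals is not in the labels, so p-values below reflect differences among these samples that may be technical. In bulk tissue of this kind, fewer cells of a type and less of a miRNA per cell cannot be told apart.

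Mature miRNAs are cut from hairpins as a 5p and a 3p arm, and the bases 2 to 8 of each arm, the seed, largely set which messenger RNAs it pairs with. The miR-132/miR-212 hairpins share 1 transcript, which neuronal activity and neurotrophins induce through the transcription factor CREB, and miR-132 promotes dendrite and spine growth, also in adult-born granule neurons. The let-7 family accumulates as cells leave the cycle and differentiate, and its level in neural progenitors is kept low by LIN28.

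The sequences of the arms from the miR-132/miR-212 locus are shown because they lead the higher miRNAs and because both 3p arms carry the same seed, marked in capitals. Sequences are from RefSeq on GRCm38.p6, 5′ to 3′.
miR-132-3p: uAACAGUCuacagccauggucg
miR-212-3p: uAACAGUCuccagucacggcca
miR-132-5p: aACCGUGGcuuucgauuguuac
miR-212-5p: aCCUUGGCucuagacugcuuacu
The hairpins they are cut from lie on the plus strand at chr11:75173388-75173478 (Mir212) and chr11:75173682-75173747 (Mir132), and both sit in an intron of 1700016P03Rik, a noncoding transcript. In the hairpins the capitals mark the mature arms.
Mir212 hairpin: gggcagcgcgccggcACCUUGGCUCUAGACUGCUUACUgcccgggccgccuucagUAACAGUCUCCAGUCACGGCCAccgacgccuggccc
Mir132 hairpin: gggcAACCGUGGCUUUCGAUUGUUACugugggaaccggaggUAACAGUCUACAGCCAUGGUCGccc

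The miRNAs that lead the lower side are shown for the same reason, again with the seed in capitals. The 4 let-7 arms below share 1 seed, and miR-338-5p is shown beside the other arm of its hairpin.
miR-5100: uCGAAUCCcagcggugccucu
miR-338-5p: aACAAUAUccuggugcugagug
miR-338-3p: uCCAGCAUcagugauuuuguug
let-7g-5p: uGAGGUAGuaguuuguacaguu
let-7d-5p: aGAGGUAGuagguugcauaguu
let-7b-5p: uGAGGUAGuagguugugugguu
miR-98-5p: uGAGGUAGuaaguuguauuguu
miR-5100 comes from chr11:60728663-60728726 on the plus strand, in an intron of Mief2, and miR-338 from chr11:120014765-120014862 on the minus strand, in an intron of Aatk. miR-34c-5p, miR-375-3p and miR-486-5p are described by their counts alone.

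The 14 libraries held 1344283 to 2955896 miRNA counts each (median 2252050), with 809 to 916 of the 1900 listed miRNAs detected. A count of 3 corresponded to 1.01 to 2.23 CPM (counts scaled to a library of standard size). Values below are CPM scaled by edgeR's TMM factors, and the 3-count floor accounts for counting error alone. The labelled tissue was checked against neuron-enriched miRNAs, of which 15 of 20 were abundant enough to test, among them miR-128-3p at 20485 CPM in home cage libraries. Others that neurons are known for were nearly uncounted: miR-124-3p (3 hairpins) stood at 0.422 CPM with at most 2 counts in a library, miR-129-5p at 0.192 CPM, miR-7a-5p at 1.28 CPM and miR-9-5p (3 hairpins) at 15.98 CPM. These arms are made from several hairpins and reads aligned to several places entered no count, although miR-128-3p also has 2 hairpins, so a low value of such an arm cannot be read as its level. The lists used here do not separate DG from CA.

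A group of libraries stood apart within both housing conditions. In 6 of the 14, home cage libraries 3 and 5 and enriched libraries 1, 2, 5 and 7, miR-10b-5p lay between 291 and 719 CPM, against 16.4 to 79.5 CPM in the other 8. miR-10b lies in a Hox gene cluster and is a marker of the posterior nervous system. The same 6 libraries held 31740 to 61563 CPM of miR-143-3p, a smooth muscle miRNA, against 10809 to 17189 CPM elsewhere, and also more of its partner miR-145a-5p (325 to 661 CPM against 159 to 262). They made up 2 of 6 home cage and 4 of 8 enriched libraries, so results are also given for the 4 home cage and 4 enriched libraries below 200 CPM of miR-10b-5p, a choice made after seeing the data.

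Enrichment for 10 weeks was accompanied by small differences in the dentate gyrus. Of 525 miRNAs tested with edgeR's quasi-likelihood F test and Benjamini-Hochberg adjustment, 2 passed an adjusted p of 0.05, which is 0.381% of those tested. miR-212-5p rose and miR-5100 fell. At an unadjusted p under 0.05 there were 29 miRNAs (5.52%), 16 higher (3.05%) and 13 lower (2.48%). By sign alone, 269 (51.2%) were positive and 256 (48.8%) negative. Log2 fold changes were centred on 0 (median 0.00, quartiles -0.10 and 0.11), and 438 of 525 (83.4%) were smaller than 0.25 in size. No miRNA separated the groups fully in either direction (0 of 525 each way). In 7 miRNAs (1.33%) at least 6 of the 8 enriched libraries exceeded the whole home cage range, and 4 of these 7 came from the miR-132/miR-212 locus. In 2 miRNAs (0.381%), miR-5100 and miR-338-5p, at least 6 lay below it.

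**Figure D1:**
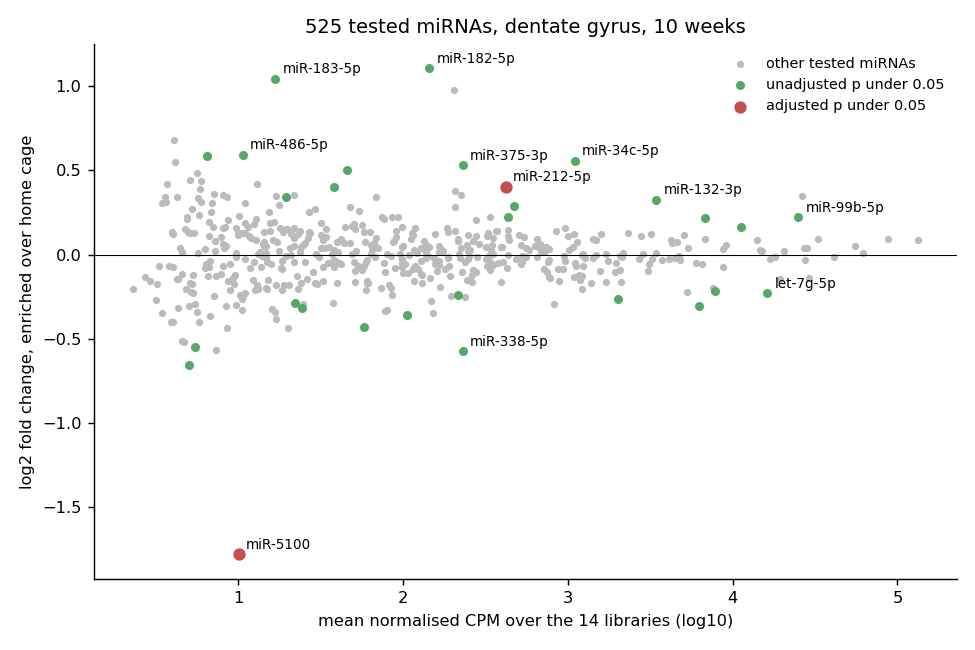
Each point is 1 of 525 tested miRNAs in the dentate gyrus at 10 weeks, with its mean normalised CPM over the 14 libraries (log10, x axis) and its log2 fold change of enriched over home cage (y axis). Most points lie within 0.25 of 0, and the 2 miRNAs past an adjusted p of 0.05 are miR-212-5p (0.40) and miR-5100 (-1.78).

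The miRNAs with the most counted reads showed little difference. Reads aligned to several places entered no count, so arms that lose reads this way may be missing from this order. The 10 most abundant by these counts took 51.4 to 55.2% of the miRNA counts of a library, and their log2 fold changes ran from -0.14 to 0.09. miR-127-3p, an imprinted miRNA of the Dlk1-Dio3 region, stood at 129014 CPM in home cage and 137104 CPM in enriched libraries (log2 difference 0.09 ± 0.08, SE). miR-22-3p stood at 84553 and 90303 CPM (0.09 ± 0.07). Among the 87 miRNAs at a mean of 1000 CPM or more, 41 had positive and 46 negative log2 fold changes.

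The miR-132/miR-212 locus gave the clearest higher group. All 4 arms were higher in enriched libraries by their estimates, 1 of the 4 passed the adjusted threshold (miR-212-5p), and their median log2 fold change was 0.31 beside 0.00 over all tested miRNAs. miR-212-5p ran from 319.7 CPM through a median of 339.7 to 437 CPM in the 6 home cage libraries, and from 415 through 443 to 551 CPM in the 8 enriched libraries. Home cage library 4 was the highest of its group, and without it the groups would not overlap. The means were 355 ± 41.7 (SD, n = 6) and 469.9 ± 50.9 CPM (SD, n = 8), a 1.32-fold difference (log2 0.40 ± 0.09 SE, edgeR adjusted p = 0.0421), with 6 of 8 enriched libraries above every home cage library. The call did not survive several other settings. miR-212-5p passed in 3 of 9 alternative fits, with adjusted p from 0.0173 to 0.772, and in 2 of the 14 edgeR fits that left out 1 library each, those without home cage library 4 (adjusted p = 0.0159) and without enriched library 8 (0.0391). In the 12 others, without any one of the remaining home cage or enriched libraries, its adjusted p lay between 0.0540 and 0.271, while the log2 fold change stayed between 0.36 and 0.48 in all 14.

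The other arms of the locus had estimates in the same direction and did not pass the adjusted threshold. miR-132-3p, the main arm of miR-132, ran from 2790.2 through 2959 to 3337 CPM in home cage and from 3124 through 3769 to 4252 CPM in enriched libraries. Enriched library 5 was the one enriched library inside the home cage range. Means were 3002 ± 208 (SD, n = 6) and 3762 ± 379 CPM (SD, n = 8), and the log2 fold change was 0.33 ± 0.09 (edgeR adjusted p = 0.308). miR-212-3p, which has the same seed, ran from 357 through 421 to 475 CPM and from 407 through 527 to 555 CPM, again with enriched library 5 lowest and inside the home cage range (0.29 ± 0.11, edgeR adjusted p = 0.709). miR-132-5p ran from 347 through 403 to 427 CPM and from 381 through 455 to 523 CPM, with enriched library 8 inside the home cage range (0.22 ± 0.09, edgeR adjusted p = 0.709).

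**Figure D2:**
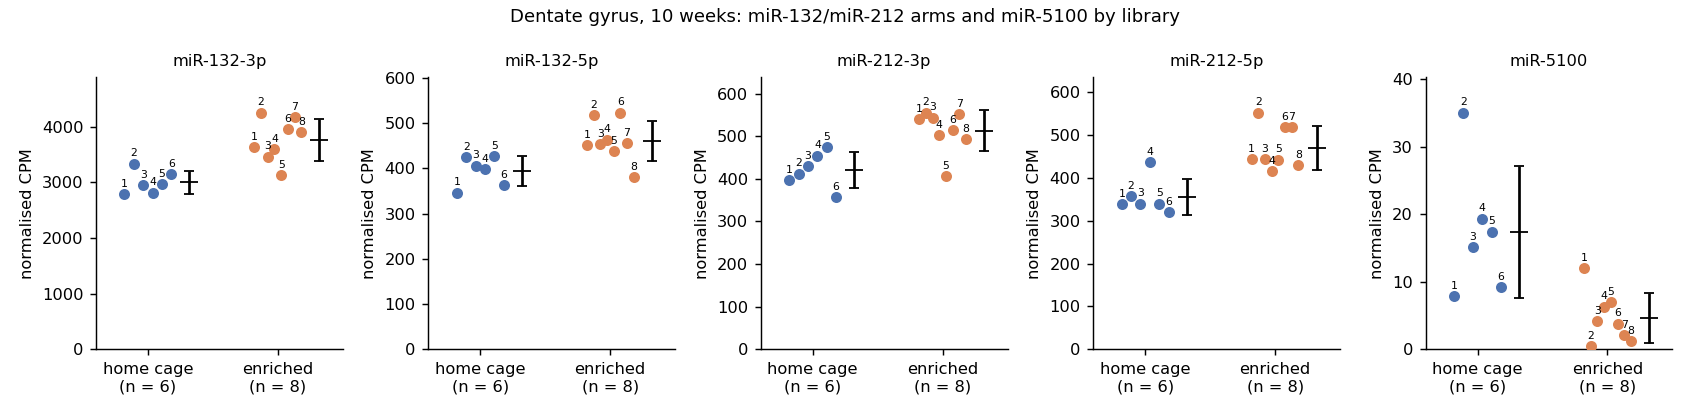
Normalised CPM (y axis, from 0) of miR-132-3p, miR-132-5p, miR-212-3p, miR-212-5p and miR-5100 in each of the 6 home cage and 8 enriched dentate gyrus libraries at 10 weeks; numbers are library numbers, and the bar gives the mean ± SD. For each arm of miR-132 and miR-212, 6 or 7 of the 8 enriched libraries lie above every home cage library, while 7 of 8 lie below every home cage library for miR-5100.

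Summing reads over the locus or over a seed left the size of the difference as it was. The 4 arms together stood at 4322 ± 192 CPM (SD, n = 6) and 5385 ± 485.7 CPM (SD, n = 8), with 7 of 8 enriched libraries above every home cage library (log2 0.32 ± 0.09, edgeR adjusted p over 264 genomic clusters = 0.186). The shared seed of miR-132-3p and miR-212-3p gave 0.31 ± 0.09 (edgeR adjusted p over 394 seed families = 0.228). One cluster (0.379%) and 1 seed family (0.254%) passed, and both were miR-5100 alone. At an unadjusted p under 0.05 there were 20 clusters (7.58%) and 19 seed families (4.82%). The ratio of the 5p to the 3p arm did not pass for either hairpin, with a log2 change of 0.12 ± 0.11 for miR-212 and -0.10 ± 0.10 for miR-132 by limma (adjusted p = 0.864 for both).

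miR-5100 was the only lower miRNA past the adjusted threshold in the main fit. Home cage libraries 1 to 6 held 7.92, 35.1, 15.1, 19.4, 17.5 and 9.27 CPM, and enriched libraries 1 to 8 held 12.01, 0.543, 4.19, 6.35, 6.97, 3.81, 2.09 and 1.21 CPM. Home cage library 2 was the highest and enriched library 1 was the one enriched library within the home cage range. In reads this was 17 to 53 counts against 1 to 34 counts, so that enriched libraries 2 and 8 were under 3 counts. Means were 17.4 ± 9.77 (SD, n = 6) and 4.65 ± 3.75 CPM (SD, n = 8), and the log2 fold change was -1.78 ± 0.37 (edgeR adjusted p = 0.0241). It passed in 5 of the 8 alternative fits that tested it, with adjusted p from 0.00342 to 0.340, and among the 8 libraries low in miR-10b-5p it was -2.07 ± 0.43 (adjusted p = 0.0502). It passed in 9 of 14 fits that left out 1 library, and not without home cage library 2 (adjusted p = 0.0998), home cage library 5 (0.0616) or enriched library 3 (0.0556), 6 (0.0577) or 7 (0.0645).

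The make-up of the libraries moved with housing in the same samples. The share of aligned reads assigned to a miRNA was 26.7 ± 2.62% (SD, n = 6) in home cage and 29.9 ± 1.88% (SD, n = 8) in enriched libraries, a difference of 3.15 percentage points (two-sided exact permutation test over 3003 arrangements, p = 0.0190). Home cage library 2, the highest in miR-5100, had the lowest share at 22.5%. Enriched library 2, the lowest in miR-5100 at 0.543 CPM, also had the lowest share of its group, at 26.5%. Without home cage library 2 the difference in share was 2.31 points (exact permutation p = 0.0521). Among the libraries low in miR-10b-5p it was 3.40 points (exact permutation p = 0.0857). The share of reads aligned to several places was lower in enriched libraries (64.6 against 67.3%, exact permutation p = 0.0353). Whether these shares have a part in the miR-5100 difference was not tested.

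The home cage libraries at 10 weeks also stood apart from those at 2 weeks in miR-5100. All 11 dentate gyrus libraries at 2 weeks held 0.880 to 3.34 CPM. That is 1 to 5 counts, around the 3-count floor of 0.949 to 2.69 CPM in those libraries, so the sizes of the differences below are uncertain. The 10-week home cage libraries were higher than the 2-week home cage libraries by 3.17 ± 0.51 on the log2 scale (edgeR adjusted p = 0.000167), in a comparison where 84 of 525 miRNAs (16%) passed. The 10-week enriched libraries differed from the 2-week enriched libraries by 1.44 ± 0.60 (edgeR adjusted p = 0.120), where 52 of 525 (9.9%) passed. The first of these comparisons uses the home cage libraries of the main comparison and the second uses its enriched libraries, so neither is independent of it. In the first, miR-338-5p was also higher at 10 weeks (1.17 ± 0.20, edgeR adjusted p = 0.000240). So were miR-1843a-3p (0.76 ± 0.20), let-7b-5p (0.38 ± 0.10), miR-664-3p (0.35 ± 0.12) and let-7g-5p (0.26 ± 0.09), with edgeR adjusted p from 0.0153 to 0.0471. miR-98-5p, let-7d-5p, miR-672-5p, miR-544-5p, miR-134-3p and miR-218-1-3p did not pass there.

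The let-7 family had lower estimates throughout. All 9 tested main arms had negative log2 fold changes, from -0.31 to -0.14 with a median of -0.22, and 0 of 9 passed the adjusted threshold. At an unadjusted p under 0.05 there were 4 lower and 0 higher, where 13 of all 525 (2.48%) were lower. These arms differ by few bases and reads that align to several places entered no count, so counts of close members rest on the reads that could be placed.

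let-7g-5p, from an intron of Wdr82, ran from 14340.3 through 18331 to 20138 CPM in home cage and from 12438 through 15454 to 16115 CPM in enriched libraries. The groups overlapped widely, and 8 of 8 enriched libraries lay under the home cage mean (-0.23 ± 0.08, edgeR adjusted p = 0.576). miR-98-5p, made from an intron of Huwe1, stood at 2228 ± 292 and 1857 ± 161 CPM (-0.26 ± 0.09, edgeR adjusted p = 0.492). let-7d-5p (-0.31 ± 0.13) and let-7b-5p (-0.22 ± 0.09) also had all 8 enriched libraries below the home cage mean. Enriched library 7 was the lowest of its group for let-7g-5p, let-7d-5p and miR-98-5p. let-7i-5p, the member with the most counted reads at 30517 and 27667 CPM, had -0.14 ± 0.14. let-7a-5p, let-7c-5p and let-7f-5p have 2 hairpins each and lose reads aligned to several places, so their levels cannot be ranked against it.

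miR-338-5p had a negative estimate that its partner arm did not share in size. It ran from 212 through 273 to 368 CPM in home cage libraries and from 119.7 through 181.9 to 326 CPM in enriched libraries, with 6 of 8 enriched libraries below every home cage library. The means were 284 ± 69.0 (SD, n = 6) and 190.3 ± 71.3 CPM (SD, n = 8), and the log2 fold change was -0.57 ± 0.18 (edgeR adjusted p = 0.333). Without enriched library 1, the highest of its group, it was -0.74 (edgeR adjusted p = 0.0228). That was the only passing fit among the 14 that left out 1 library, where adjusted p reached 0.888. miR-338-5p passed in 0 of 9 alternative fits, with adjusted p from 0.185 to 0.988. miR-338-3p, a promoter of oligodendrocyte maturation, stood at 2146 and 2012 CPM (-0.09 ± 0.09). The 5p to 3p ratio of miR-338 changed by -0.54 ± 0.19 on the log2 scale (limma adjusted p = 0.497), in a test where 0 of 120 hairpins (0%) passed and 5 (4.17%) had an unadjusted p under 0.05.

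Oligodendrocyte markers as a group showed no common direction. Of 7, 5 were tested, 2 with positive and 3 with negative log2 fold changes (median -0.09), 0 passed, and miR-219a-5p was at 0 in all 14 libraries. That arm has 2 hairpins and loses reads aligned to several places, as do miR-199a-5p and miR-196a-5p below, so these zeros cannot be read as levels. miR-219a-2-3p had -0.09 ± 0.17. Their summed level was 2289 to 3835 CPM in home cage and 2218 to 2757 CPM in enriched libraries, and home cage library 2 was the highest.

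2 of the lower miRNAs lie inside annotated genes for other small RNAs. miR-1843a-3p, at 68.4 ± 10.6 CPM (SD, n = 6) and 50.5 ± 11.1 CPM (SD, n = 8), had -0.43 ± 0.18 (edgeR adjusted p = 0.748), and its hairpin overlaps Scarna3b, a small Cajal body RNA. miR-664-3p had -0.24 ± 0.11 (edgeR adjusted p = 0.790), and its hairpin overlaps the small nucleolar RNA gene Snora36b. Reads of these miRNAs and of the overlapping genes cannot be told apart here. Among the remaining lower miRNAs of the 12 with the smallest p, miR-134-3p, miR-218-1-3p, miR-672-5p and miR-544-5p lay between -0.29 and -0.36, and none passed.

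For several of the higher miRNAs, a few enriched libraries stood above the others. miR-34c-5p, which with miR-34b is abundant in multiciliated cells such as ependyma, ran from 697 through 853 to 1036 CPM in home cage and from 816 through 1124 to 2030.2 CPM in enriched libraries. Enriched libraries 2 and 6 were highest and 4 of 8 exceeded every home cage library (0.56 ± 0.18, edgeR adjusted p = 0.343). With 1 library left out, the log2 fold change of miR-34c-5p ran from 0.43 to 0.63. miR-34b-5p had 0.50 ± 0.19 and miR-34a-5p 0.05 ± 0.17. Of the 7 tested members of the miR-34/miR-449 family, 6 were positive with a median of 0.36 and 0 passed. The choroid plexus and ependyma list, which also holds miR-34b-5p and miR-34c-5p, had 7 positive and 4 negative members (median 0.10, 0 passed), and its most abundant member, miR-204-5p, stood at 14467 and 14746 CPM.

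miR-182-5p and miR-183-5p, neighbours on chromosome 6 known from sensory organs, rested on enriched library 6. miR-182-5p ran from 41.6 through 52.6 to 168 CPM and from 65.6 through 118 to 638 CPM, and miR-183-5p from 5.05 through 8.71 to 19.4 CPM and from 6.09 through 14.2 to 74.2 CPM. The groups overlapped over most of their range (log2 1.11 ± 0.44 and 1.04 ± 0.44, edgeR adjusted p = 0.709 and 0.748). Without enriched library 6 the log2 fold changes were 0.50 and 0.41. miR-375-3p, best known from pancreatic islets and the pituitary, ran from 126.5 through 191 to 208 CPM and from 201 through 237 to 423 CPM. 6 of 8 enriched libraries were above every home cage library, and home cage library 4 was low (0.53 ± 0.17, edgeR adjusted p = 0.333).

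miR-99b-5p and miR-299a-3p complete the higher miRNAs outside the blood group. miR-99b-5p, an abundant miRNA from the cluster that also makes let-7e and miR-125a, stood at 22836 ± 1398 CPM (SD, n = 6) and 26619 ± 3060.3 CPM (SD, n = 8), with 5 of 8 enriched libraries above every home cage library (0.22 ± 0.09, edgeR adjusted p = 0.709). In the same cluster, miR-125a-5p had 0.01 ± 0.08 and let-7e-5p -0.22 ± 0.18. miR-299a-3p, from the Dlk1-Dio3 region, had 0.34 ± 0.14 (edgeR adjusted p = 0.709). That region, a large imprinted miRNA locus on chromosome 12 expressed in neurons, was even as a whole: of 83 tested members, 41 were positive and 42 negative, the median was 0.00, and 0 passed.

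Markers of red blood cells were higher by estimate. All 5 tested members were positive with a median of 0.35, and 0 passed. miR-486-5p, from an intron of Ank1, ran from 4.38 through 7.39 to 14.4 CPM in home cage and from 10.6 through 12.7 to 13.9 CPM in enriched libraries, so the enriched libraries lay within the home cage range, above its median (0.59 ± 0.18, edgeR adjusted p = 0.308). miR-451a stood at 193 and 248 CPM (0.35 ± 0.21), miR-144-5p at 32.5 and 42.8 CPM (0.40 ± 0.18) and miR-144-3p at 42.1 and 51.5 CPM (0.28 ± 0.20). Without home cage library 5, miR-451a had 0.64 and miR-144-3p 0.52. Their summed level was 213 to 516 CPM in home cage and 265 to 510.0 CPM in enriched libraries.

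miR-143-3p and miR-145a-5p of the vascular list, and the hindbrain markers miR-10a-5p and miR-10b-5p, were high in the 6 libraries described above. miR-126a-3p, another marker of vessels, split this way less cleanly. The 6 libraries held 2219 to 2917 CPM of it, the lowest in home cage library 3. Enriched libraries 4 and 6, outside the 6, held 2471 and 2683 CPM. The rest of the libraries outside the 6 lay between 1763 and 2119.5 CPM, under every one of the 6. Vascular and mesenchymal markers summed to 14068 to 46182 CPM in home cage and 12843 to 65584 CPM in enriched libraries. Most of the sum was miR-143-3p, as with 42301 of 46182 CPM in home cage library 5. Of 9 markers 5 were tested, and 5 were positive, with a median of 0.22 and 0 passed. miR-126a-5p and miR-199a-5p (2 hairpins) were at 0 in all 14 libraries. The other arm of miR-126a, miR-126a-3p, stood at 2212 CPM in home cage and 2418 CPM in enriched libraries (0.13 ± 0.11). Why miR-126a-5p held no counts was not tested. miR-143-3p had 0.35 ± 0.42 and miR-145a-5p 0.22 ± 0.36. Single libraries set these estimates: without enriched library 7 they were 0.096 and 0.039, and without home cage library 5 they were 0.61 and 0.57. For the hindbrain markers, 2 of 7 were tested, miR-10b-5p (0.98 ± 0.76) and miR-10a-5p (0.28 ± 0.23), 0 passed and miR-196a-5p was at 0. These were 0.56 and 0.13 without enriched library 7, and 1.58 and 0.44 without home cage library 5. The part of these cell types in the results above was not tested, beyond the fits on the libraries low in miR-10b-5p. In those, the miR-132/miR-212 arms had log2 fold changes of 0.30 ± 0.13 (miR-132-3p), 0.24 ± 0.12 (miR-132-5p), 0.33 ± 0.15 (miR-212-3p) and 0.31 ± 0.13 (miR-212-5p), and 0 of 521 miRNAs passed edgeR's adjusted threshold, with 30 at an unadjusted p under 0.05.

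In the lists of neuronal function 0 members passed the adjusted threshold, and the direction of the estimates differed between lists. Of 24 tested miRNAs tied to synaptic plasticity, 14 were positive and 10 negative (median 0.02, 0 passed), and 4 had an unadjusted p under 0.05, all higher, where 16 of all 525 (3.05%) were; miR-132-3p, miR-212-3p and miR-34c-5p are among these 4. The 15 tested neuron-enriched miRNAs had 2 positive and 13 negative log2 fold changes with a median of -0.07, beside 256 negative (48.8%) among all 525, and 0 passed. Of 19 miRNAs tied to adult neurogenesis, 13 were positive and 6 negative (median 0.04). The proliferation clusters, which are active in dividing cells, had 11 positive and 3 negative members (median 0.06). In both of these lists 0 passed. Astroglia markers, a list that also holds miR-143-3p, had 6 positive and 2 negative members (median 0.11) and microglia and leukocyte markers 6 and 1 (median 0.04), also with 0 passed.

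**Figure D3:**
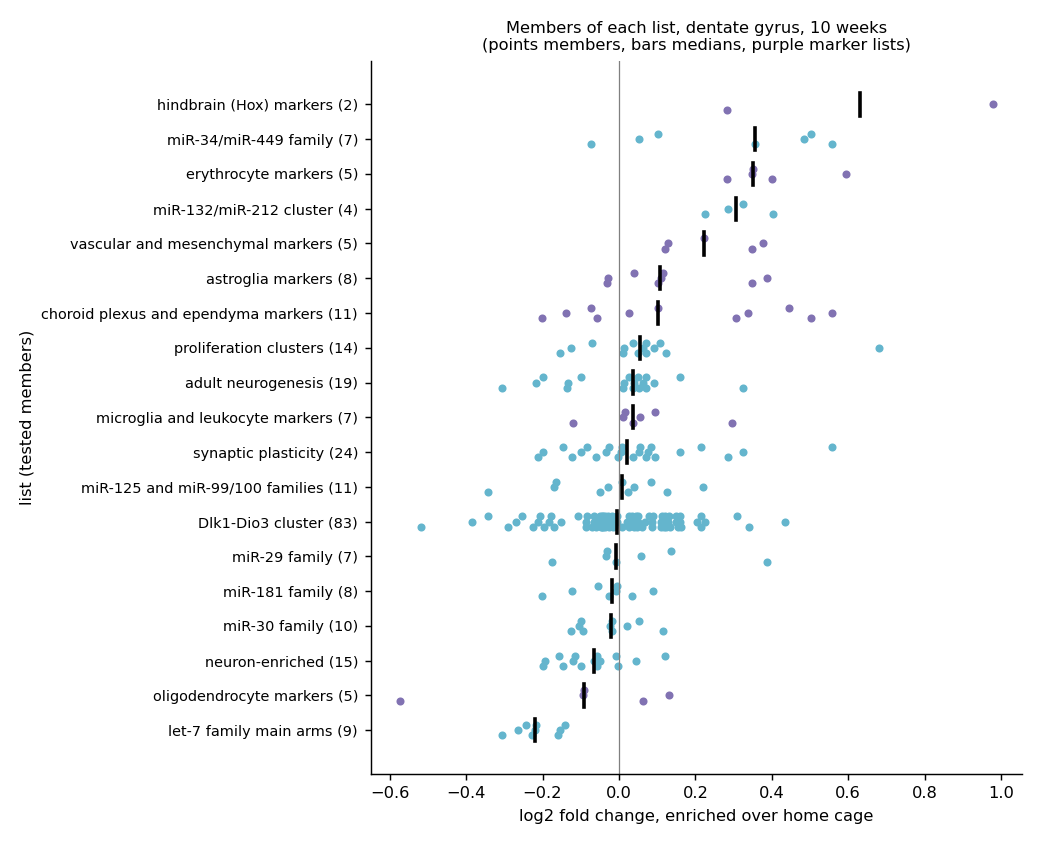
Log2 fold change of enriched over home cage (x axis) for the tested members of each list (y axis, number tested in parentheses) in the dentate gyrus at 10 weeks, with points for members, black bars for medians and purple for cell type marker lists. The let-7 arms all lie below 0 (median -0.22) and the miR-132/miR-212 arms all above 0 (median 0.31), while the larger lists straddle 0.

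**Figure D4:**
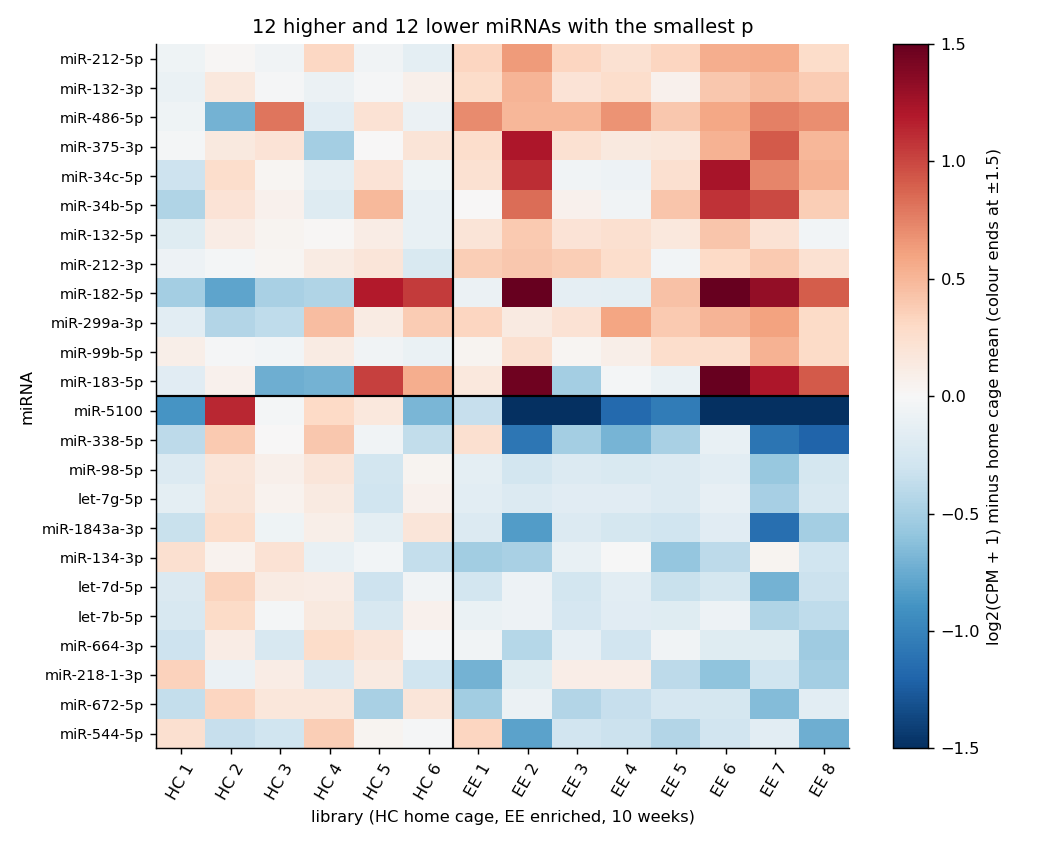
Colour gives log2(CPM + 1) of each library (x axis) minus the home cage mean, for the 12 higher and 12 lower miRNAs with the smallest p among those at a mean of 10 CPM or more (y axis); the colour scale ends at ±1.5. Enriched libraries 2, 6 and 7 are darkest for miR-34c-5p and miR-182-5p, and 7 of 8 enriched libraries lie below every home cage library for miR-5100.

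The same contrast was available after 2 weeks in the dentate gyrus (5 enriched and 6 home cage libraries) and after 10 weeks in CA (8 and 6 libraries). Library 3 of the enriched CA group had 480792 counts, the fewest of its group, and CA values below leave it out unless stated. After 2 weeks in the dentate gyrus, 3 of 525 miRNAs (0.571%) passed, all of them arms of the same locus: miR-132-3p (0.56 ± 0.10, edgeR adjusted p = 0.00368), miR-132-5p (0.55 ± 0.10, 0.00278) and miR-212-3p (0.63 ± 0.13, 0.00492). miR-212-5p had 0.34 ± 0.10 there (edgeR adjusted p = 0.297). In CA at 10 weeks, miR-132-3p had 0.34 ± 0.06 and miR-212-3p 0.36 ± 0.06 (edgeR adjusted p = 0.00126 for both). Both calls rest on leaving library 3 out. With it included, miR-132-3p had 0.28 ± 0.08 and miR-212-3p 0.24 ± 0.14 (edgeR adjusted p = 0.572 and 0.848). miR-212-5p had 0.31 ± 0.08 in CA (adjusted p = 0.0870), and with library 3 included 0 of 581 CA miRNAs passed, with 30 (5.16%) at an unadjusted p under 0.05.

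The differences between these effects were tested directly. Between 10 and 2 weeks in the dentate gyrus, 0 of 525 miRNAs differed by edgeR's adjusted threshold, 21 (4%) had an unadjusted p under 0.05, and 0 passed with voom or DESeq2. The difference was -0.33 ± 0.13 for miR-132-5p, -0.34 ± 0.17 for miR-212-3p, -0.23 ± 0.14 for miR-132-3p and 0.07 ± 0.14 for miR-212-5p. For miR-486-5p it was 0.84 ± 0.27. For miR-5100 it was -1.73 ± 0.91, with 2-week libraries at 1 to 5 counts.

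DG and CA libraries may come from the same mice, which the labels do not settle, and the test of regions treats them as separate samples. Between the dentate gyrus and CA at 10 weeks, 0 of 593 miRNAs differed, 25 (4.22%) had an unadjusted p under 0.05, and the miR-132 and miR-212 arms differed by 0.02 ± 0.12 (miR-132-5p) to 0.11 ± 0.13 (miR-212-5p). The smallest p-values were those of miR-664-3p (-0.59 ± 0.17), miR-338-5p (-0.76 ± 0.25), let-7d-5p (-0.50 ± 0.17) and let-7g-5p (-0.50 ± 0.17), which were lower in enriched dentate gyrus and higher in enriched CA by estimate. That test includes enriched CA library 3. Without it the difference was -0.33 for let-7d-5p and -0.24 for let-7g-5p, and the CA effects were 0.19 ± 0.07 for miR-664-3p, 0.13 ± 0.16 for miR-338-5p, 0.04 ± 0.05 for let-7d-5p and 0.03 ± 0.05 for let-7g-5p.

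**Figure D5:**
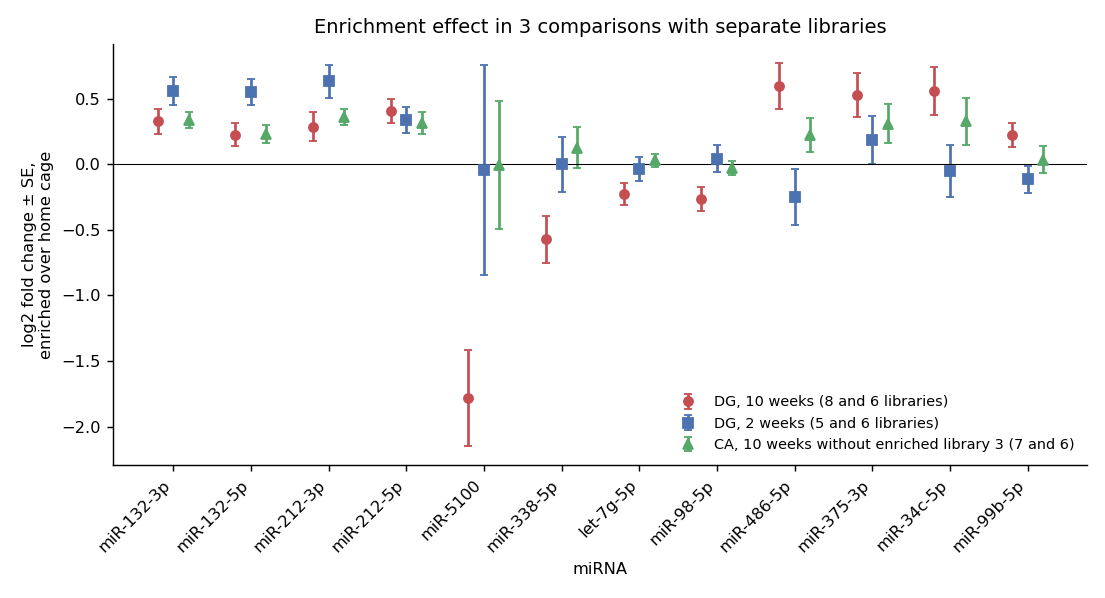
Log2 fold change ± SE of enriched over home cage (y axis) for 12 miRNAs (x axis) in the dentate gyrus at 10 weeks, the dentate gyrus at 2 weeks and CA at 10 weeks without enriched library 3. The miR-132 and miR-212 arms lie above 0 in all 3 comparisons, while miR-5100 is at -1.78 in the dentate gyrus at 10 weeks and at -0.05 ± 0.80 and -0.0055 ± 0.49 in the other two, of which the 2-week libraries held 1 to 5 counts and could not show a fall.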

How the data were processed

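Per the labels, total RNA of dissected tissue was made into Illumina TruSeq libraries. The authors deposited raw read counts per mature miRNA; per the submitters' processing notes they used CASAVA 1.8.2, cutadapt, STAR and HTSeq on mm10. Which miRNA annotation and which versions of the other tools were used is not given in the sources used here. Each file's 5 closing totals entered neither library sizes nor tests. In the 14 libraries they held 67.0 to 77.5% of all reads, chiefly reads aligned to several places.

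Counts were tested with edgeR 4.0.16 (TMM, filterByExpr, quasi-likelihood F test, R 4.3.3), fitted on all 25 dentate gyrus libraries with 1 mean per group. The fit was also run on simulated counts with the same spread for every miRNA and no subgroup of libraries, unlike these data. Counts were also summed by seed and by hairpins within 10 kb. Arm ratios (0.5 added, both arms at a mean of 10 CPM) used limma 3.58.1, and read shares an exact permutation test (scipy 1.17.1). Hosts are from GENCODE M21 and 1603 of 1900 miRNAs matched a RefSeq sequence.

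Named miRNAs are the 4 miR-132/miR-212 arms, all calls, the 12 smallest p in each direction at a mean of 10 CPM or more, and the most abundant overall and per list. The members and lists were chosen with earlier results of these data known. Alternatives were other scaling, filters, DESeq2 1.42.0, voom, a replicate block, other sets of libraries and leaving out each library. Of 43 pairs of libraries within the 2 groups, 0 held identical values.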

Additional observations from a re-analysis of the deposited data

Results flagged for a closer look

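In 8 of the 56 groups checked, 1 library lay far from the rest of its group by Dixon's gap test, which chance alone does in about 1 of 20 groups. The groups share libraries and several flags fall on the same library, so the flags are not separate events. Enriched library 7 was low for 3 let-7 arms, with 4243 CPM of let-7d-5p (5537 to 6625 CPM in the others), 12438 CPM of let-7g-5p (14971 to 16115 CPM) and 1487 CPM of miR-98-5p (1823 to 1992 CPM). Enriched library 6 was high, with 638 CPM of miR-182-5p (65.6 to 248 CPM in the others) and 74.2 CPM of miR-183-5p (6.09 to 26.6 CPM). Enriched library 5 was low for miR-212-3p at 407 CPM (492.7 to 555 CPM in the others). Home cage library 4 was high for miR-212-5p at 437 CPM (319.7 to 357 CPM in the others) and low for miR-375-3p at 126.5 CPM (178 to 208 CPM).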

How the results depend on the processing

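The count of 2 miRNAs past the adjusted threshold was 2 without a filter, with DESeq2, with voom and with all 52 libraries, 1 with DESeq2 size factors, and 0 with a filter at a mean of 10 CPM, in the fit of the 2 groups alone and in the 8 libraries low in miR-10b-5p. It ranged from 0 to 2 when 1 library was left out. The 1 seed family became 3 without a filter, 2 with DESeq2 and 0 at 10 CPM or in the fit of the 2 groups alone (0 to 3 with 1 library left out). The 1 genomic cluster became 3 without a filter and 0 at 10 CPM (0 to 2). The 0 arm ratios became 1 in 1 of the fits with a library left out (0 to 1). The differences between times and between regions stayed at 0 in every alternative run. The difference in the share of miRNA reads was 2.31 to 3.80 points with 1 library left out and 3.40 points in the libraries low in miR-10b-5p. The causes of these changes were not tested, except that the 10 CPM filter left miR-5100 out of the test.

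With the library number as a replicate block, 0 single miRNAs, 0 seed families and 0 genomic clusters passed. The numbers do not pair the samples by the labels, and deviations of same-numbered libraries correlated at 0.04, 0.30, -0.07, 0.11, 0.23 and 0.27 for numbers 1 to 6, with numbers 2 and 6 correlating best with their own number.

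Of 39 single miRNAs named, 4 changed sign in some alternative. miR-204-5p was -0.011 under the replicate block, -0.040 in the libraries low in miR-10b-5p and -0.031 to 0.059 with 1 library left out. miR-34a-5p was -0.19 in the libraries low in miR-10b-5p and -0.051 to 0.23 with 1 library left out. With 1 library left out, miR-338-3p ranged from -0.15 to 0.018 and miR-219a-2-3p from -0.18 to 0.15, each positive only without home cage library 2. The miR-212 arm ratio was -0.026 in the libraries low in miR-10b-5p. Depth limits miRNAs under about 2.23 CPM, where 3 counts or fewer were read.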
